A study of Arabidopsis thaliana with 16 samples.

Results

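The SMXL (SUPPRESSOR OF MAX2 1-LIKE) family of Arabidopsis thaliana consists of 8 genes, SMAX1 and SMXL2 to SMXL8, and all 8 were followed here by their locus identifiers among the 33602 loci of a count table of polyadenylated RNA. All 8 passed the filter on low counts, which left 20947 loci for testing. The study compared 4 genotypes with 4 libraries each: wild type (WT, Col-0), the mutant of the strigolactone receptor D14 carrying the d14-7 allele, the cytokinin oxidase double mutant ckx3 ckx5, and scl28, a mutant of the transcription factor gene SCARECROW-LIKE28. Its title concerns the suppression of rosette branching by loss of SCL28 or of CKX3 and CKX5. The tissue was the lower stem with its axillary meristems, taken from plants with a bolt under 1 cm after leaves, roots and the elongated stem had been cut away. Plants grew in 16 h light and 8 h dark and were harvested between 9 and 11 in the morning, 23 days after sowing for WT, d14-7 and ckx3 ckx5 and 25 days after sowing for scl28, so that genotype and harvest day cannot be told apart for scl28. Each library came from 2 to 3 pooled plants, and of 5 such pools per genotype 4 were chosen by RNA integrity. Each mutant was 1 line, and the p-values below measure the spread between these pools.

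SMXL proteins resemble ClpB ATPases, act in the nucleus and recruit TOPLESS corepressors through a short EAR motif. When the receptor D14 binds strigolactone, or KAI2 binds a karrikin or a related signal, the F-box protein MAX2 marks SMXL proteins for degradation, and their targets are released. SMXL6, SMXL7 and SMXL8 are the repressors of the strigolactone branch and promote shoot branching, in part by holding down BRC1, a TCP factor that restrains bud outgrowth. SMXL6 is also known to bind the promoters of SMXL6, SMXL7 and SMXL8 and to repress them. SMAX1 and SMXL2 act in the KAI2 branch, in seeds, seedlings and roots, and SMXL3, SMXL4 and SMXL5 act in phloem formation outside both receptor branches.

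The genes lie on all 5 nuclear chromosomes in assembly TAIR10.1: SMXL6 (AT1G07200) on chromosome 1 from 2208477 to 2212718 (minus strand), SMXL7 (AT2G29970) and SMXL8 (AT2G40130) on chromosome 2 from 12776208 to 12780069 and from 16765709 to 16769279 (both plus), SMXL3 (AT3G52490) on chromosome 3 from 19455505 to 19459203 (minus), SMXL4 (AT4G29920) and SMXL2 (AT4G30350) on chromosome 4 from 14632413 to 14636101 (minus) and from 14847583 to 14851248 (plus), and SMXL5 (AT5G57130) and SMAX1 (AT5G57710) on chromosome 5 from 23144947 to 23149615 and from 23384255 to 23388465 (both plus). No pair of members shares a stretch of 50 identical bases in its exons, the length used to look for reads that could be split between them. SMXL8 overlaps at its 5′ end the antisense long non-coding RNA AT2G09115 (16765369 to 16765864, minus strand). The library kit did not mark strand, so that reads of this transcript within the overlap cannot be told apart from those of SMXL8, and the long non-coding RNA has no row of its own in the count table.

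The 250 bases upstream of the annotated transcript start are printed for SMXL6, SMXL7 and SMXL8, because these 3 genes moved together in d14-7 and SMXL8 parted from the others in ckx3 ckx5. The sequences are from RefSeq TAIR10.1, 5′ to 3′ on the strand of the gene. SMXL6 is at chr1:2212719-2212968 (minus strand), SMXL7 at chr2:12775958-12776207 (plus) and SMXL8 at chr2:16765459-16765708 (plus), and capitals mark matches to the searched motifs.
SMXL6: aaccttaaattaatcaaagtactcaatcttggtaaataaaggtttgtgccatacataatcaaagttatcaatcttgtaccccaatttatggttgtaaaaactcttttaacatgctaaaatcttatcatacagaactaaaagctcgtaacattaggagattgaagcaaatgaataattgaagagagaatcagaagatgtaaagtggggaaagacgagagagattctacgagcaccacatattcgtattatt
SMXL7: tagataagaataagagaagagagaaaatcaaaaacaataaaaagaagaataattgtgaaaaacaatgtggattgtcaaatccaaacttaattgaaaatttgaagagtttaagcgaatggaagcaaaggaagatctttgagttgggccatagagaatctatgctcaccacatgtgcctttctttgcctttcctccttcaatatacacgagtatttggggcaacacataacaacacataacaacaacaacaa
SMXL8: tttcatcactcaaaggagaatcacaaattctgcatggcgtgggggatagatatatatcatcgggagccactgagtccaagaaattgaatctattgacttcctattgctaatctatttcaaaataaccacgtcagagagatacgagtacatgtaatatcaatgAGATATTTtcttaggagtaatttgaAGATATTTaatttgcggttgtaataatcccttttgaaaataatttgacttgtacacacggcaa
Searched on both strands were the G-box CACGTG, the evening element AAATATCT of the circadian clock and the TCP site GGNCCC. Of the 8 promoters, only that of SMXL8 held a match, to the evening element on the reverse strand (read as AGATATTT on the strand of the gene) at 88 to 81 and again at 63 to 56 bases upstream of the start. Over all 27438 promoters of the same length, 4.79% held at least 1 evening element and 0.259% held 2 or more, 6.49% held a G-box and 7.35% a TCP site. A match of letters is a description of the sequence and no evidence of binding.

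Library totals ran from 24334925 to 36735056 counts, and 24269 to 28493 loci had at least 1 count. Among the genes targeted by the mutations, SCL28 stood at 14.03 to 18.4 CPM (counts relative to the TMM-scaled library total) in the scl28 libraries against 25.8 to 46.2 in WT, and D14 at 27.7 to 33.3 CPM in d14-7 against 39.2 to 44.1 in WT. CKX3 was higher, not lower, in the libraries labelled ckx3 ckx5, at 1.43 to 1.96 CPM against 0.0527 to 0.65 in WT (log2 fold change 2.40 ± 0.51, edgeR adjusted p = 0.00201), and CKX5 stood at 2.18 to 4.25 CPM against 2.11 to 6.11. Transcript level alone does not show whether a functional product is made, and the name of the group is used below as the label gives it. Leaf photosynthesis markers were present although leaves had been cut away, with the sum of 20 genes at 25640 to 41460 CPM in WT, 34430 to 43430 in d14-7, 29030 to 32400 in the libraries labelled ckx3 ckx5 and 25070 to 27960 in scl28. Of 8 meristem markers 7 could be tested, among them STM at 90.3 to 171.5 CPM in WT, while the stem cell marker CLV3 had 0 to 17 counts per library.

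Compared per length of transcript, SMXL7 was the most abundant member in WT at 35.2 ± 5.33 RPKM (CPM per kilobase of merged exons, mean ± SD, n = 4 libraries). A group of 4 genes followed within their spread of each other, SMXL5 at 13.6 ± 0.969, SMXL8 at 13.0 ± 1.98, SMAX1 at 12.4 ± 1.02 and SMXL6 at 11.9 ± 1.11 RPKM. SMXL2 at 5.36 ± 0.606, SMXL4 at 3.13 ± 0.431 and SMXL3 at 2.24 ± 0.175 RPKM were the lowest. The order differed in d14-7, where SMXL5 (15.2 ± 0.826), SMXL7 (13.1 ± 0.536) and SMAX1 (11.8 ± 0.465 RPKM) led, SMXL6 and SMXL8 were level at 5.37 ± 0.162 and 5.36 ± 0.454 RPKM, and SMXL2 and SMXL4 lay within their spread at 3.84 ± 0.532 and 3.71 ± 0.292 RPKM. The SMXL4 length of 3519 bases is that of a model absent from the count table, and the counted model has 3090 bases. With the shorter length RPKM of SMXL4 would be higher, so its order with SMXL2 in d14-7 depends on the length used. In the libraries labelled ckx3 ckx5 SMXL8 stood second at 23.1 ± 1.60 RPKM, apart from SMXL7 above it (34.8 ± 2.34) and SMXL5 below it (15.2 ± 0.608). SMXL7 led in scl28 at 34.5 ± 1.88 RPKM, followed by SMXL8 at 16.7 ± 1.44, SMXL5 at 16.2 ± 1.56 and SMXL6 at 14.6 ± 0.733, of which neighbours lay within their spread.

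**Figure D1:**
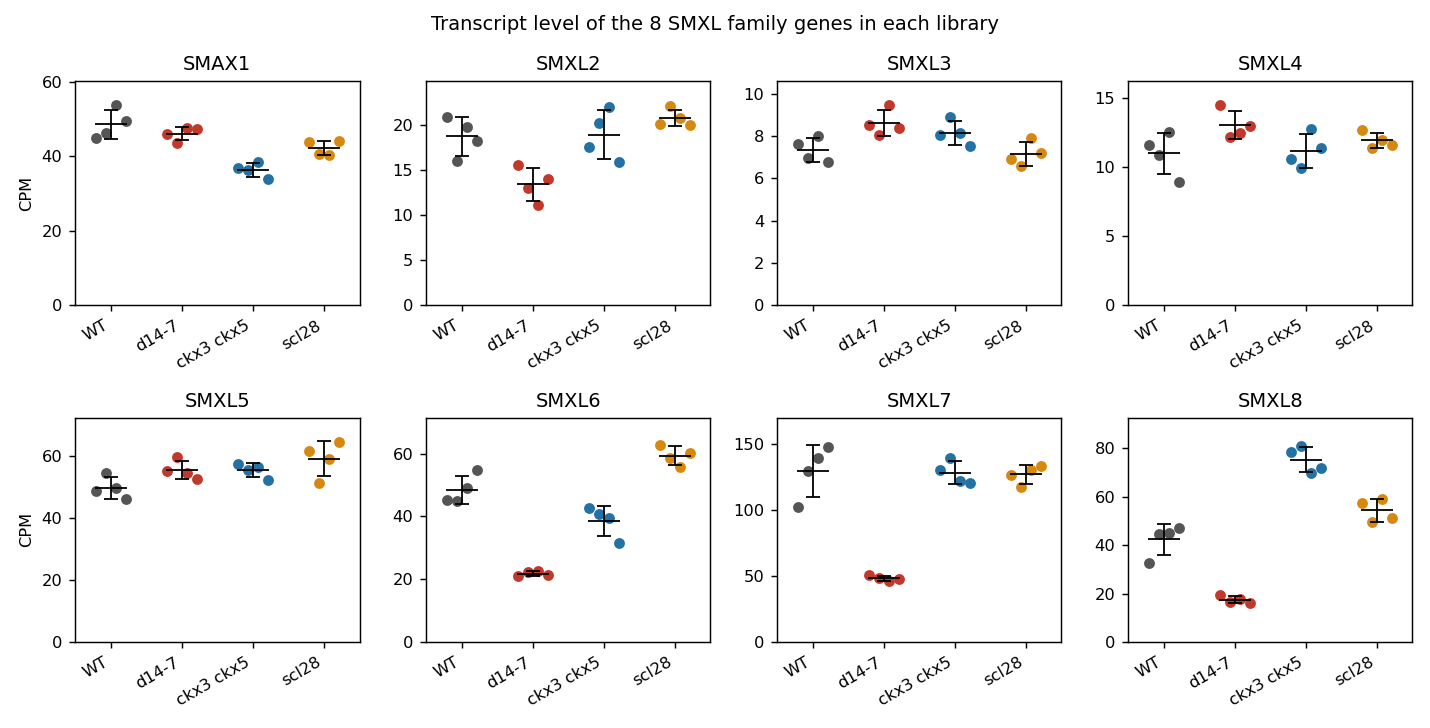
CPM of each SMXL family gene in each of the 16 libraries, by genotype; points are libraries, the wide bar is the mean and the whiskers are the SD (n = 4). The d14-7 libraries of SMXL6, SMXL7 and SMXL8 lie below every other library, and the ckx3 ckx5 libraries of SMXL8, between 70.0 and 81.0 CPM, lie above every other library.

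The question of the comparison of d14-7 with WT is which members respond when strigolactone perception is impaired. SMXL6, SMXL7 and SMXL8 each fell to less than 50% of their WT level in d14-7, SMXL2 fell by a smaller amount, and the phloem members and SMAX1 did not pass the test. The count was 4 of 8 members lower. Of all loci tested, 38.7% changed in this comparison, 18.1% higher and 20.6% lower, so that a change as such was common. Called falls as large as that of SMXL2 were seen at 9.72% of loci, and as large as those of SMXL6, SMXL7 and SMXL8 at 1.45 to 2.48%. The median log2 fold change of the 8 members was -0.28, and that of all loci -0.01.

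SMXL7, the most abundant repressor of the strigolactone branch, had 102.5, 129.5, 139.2 and 147.8 CPM in the WT libraries and 51.0, 48.4, 46.2 and 47.7 CPM in the d14-7 libraries. The groups did not overlap, a state reached by 26.8% of all loci in either direction. The log2 fold change was -1.43 ± 0.09 (SE; edgeR adjusted p = 8.18e-08), which leaves 37.2% of the WT level, and the locus was number 7 of 20947 when ordered by p. A called fall of at least this size was seen at 1.45% of loci.

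SMXL8 had 32.9, 44.5, 45.0 and 47.1 CPM in WT and 19.3, 16.6, 17.9 and 16.0 CPM in d14-7. Its lowest WT library, replicate 1, was also the lowest WT library of SMXL7 and still lay above all d14-7 libraries. The change was -1.28 ± 0.10 (edgeR adjusted p = 9e-07), or 41.1% of WT. SMXL6, the member known to bind the promoters of all 3, had 45.3, 45.1, 49.0 and 54.7 CPM in WT and 21.2, 22.3, 22.5 and 21.3 CPM in d14-7. It changed by -1.15 ± 0.09 (edgeR adjusted p = 4.25e-07), or to 45% of WT, and its d14-7 libraries varied little, with an SD of 0.658 CPM. Called falls as large as that of SMXL8 were seen at 1.86% of loci and as large as that of SMXL6 at 2.48%.

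SMXL2, which acts redundantly with SMAX1 in the KAI2 branch, had 20.9, 16.0, 19.8 and 18.2 CPM in WT and 15.6, 13.0, 11.1 and 14.1 CPM in d14-7. The groups did not overlap, although the lowest WT and the highest d14-7 library were close, and the change was -0.48 ± 0.11 (edgeR adjusted p = 0.00445). SMAX1, its partner, was at 48.6 ± 3.99 CPM in WT and 46.2 ± 1.82 CPM in d14-7 (log2 fold change -0.07, 95% interval -0.21 to 0.06, edgeR adjusted p = 0.361). The difference between the responses of these 2 genes was not tested.

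The phloem members stood slightly higher in d14-7 without passing the test. SMXL3 stood at 0.23 ± 0.09 (edgeR adjusted p = 0.0529), SMXL4 at 0.25 ± 0.10 (0.0674) and SMXL5 at 0.16 ± 0.07 (0.087). SMXL3 lies at the edge of the threshold. Its WT libraries at 6.75 to 7.98 CPM and its d14-7 libraries at 8.04 to 9.48 CPM did not overlap, as at 26.8% of all loci. It passed under 3 of 18 alternatives, with DESeq2 (adjusted p = 0.0439), with limma-voom (0.0478) and without WT replicate 1 (0.0493, edgeR). With the leaf term the edgeR adjusted p was 0.331, and with 1 library left out it was up to 0.158.

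**Figure D2:**
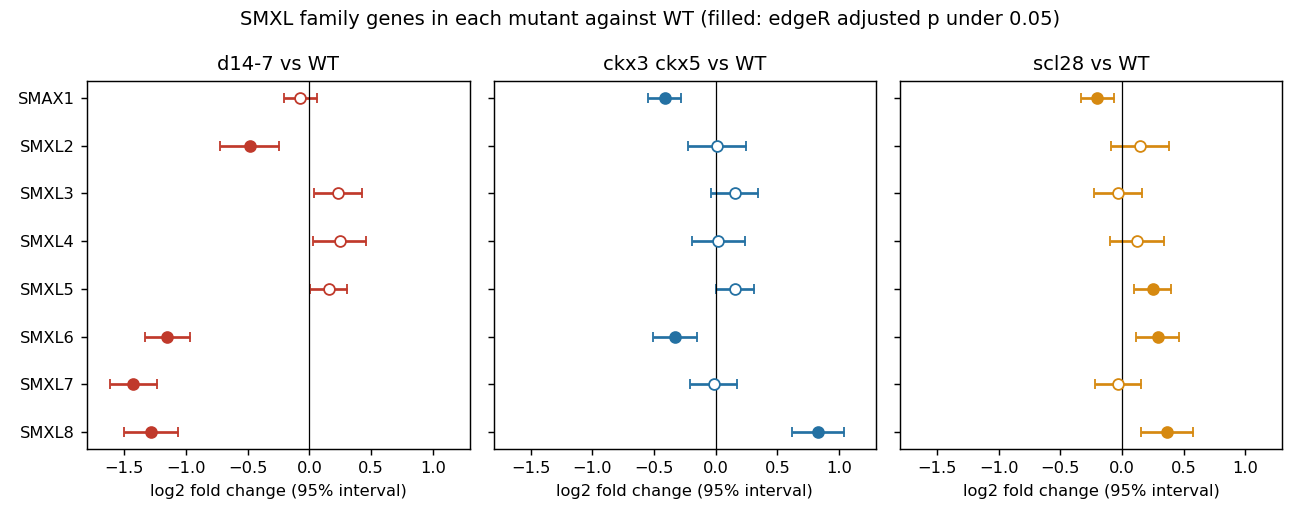
Log2 fold change of each member against WT in d14-7, ckx3 ckx5 and scl28, with 95% intervals from the edgeR model; filled points passed an adjusted p of 0.05. SMXL6, SMXL7 and SMXL8 stand between -1.43 and -1.15 in d14-7, and SMXL8 has the largest rise of the 24 values shown, 0.83 in ckx3 ckx5.

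Leaf markers moved with genotype beside these falls: 11 of 20 were higher in d14-7, beside 18.1% of all loci, with a median log2 fold change of 0.33. In bulk tissue, fewer cells of a type and less RNA per cell cannot be told apart. With the mean log2 level of the 20 leaf genes as a term in the model, the loci called between d14-7 and WT fell from 8101 to 2133, while SMXL6 stood at -1.08, SMXL7 at -1.22 and SMXL8 at -1.10 (adjusted p = 4.24e-06, 1.7e-07 and 6.99e-06, edgeR). Leaf levels ran from 10.30 to 10.63 on the log2 scale in d14-7. In WT replicates 1 to 4 they were 10.56, 10.21, 9.91 and 9.76, beside SMXL7 levels of 102.5, 129.5, 139.2 and 147.8 CPM, so that within WT the libraries with a higher leaf level had less SMXL7. Beyond the term in the model, the part of leaf tissue in the SMXL values was not tested. Without WT replicate 1 or any other library of the 2 groups, the changes ran from -1.52 to -1.36 for SMXL7, from -1.39 to -1.23 for SMXL8 and from -1.18 to -1.09 for SMXL6. Of 6 root markers tested, 3 were higher in d14-7 (PHT1;1, PHT1;4 and PYK10), and the sum of the list, 400.9 to 473.1 CPM against 177.7 to 303.3 in WT, was nearly all PYK10, at 385.7 to 455.6 and 170.8 to 293.6 CPM. Of 7 meristem markers tested, 2 were lower in d14-7, beside 20.6% of all loci, STM at -0.54 and RAX1 at -1.10 on the log2 scale. The sum of the list was 204.6 to 246.9 CPM against 200.5 to 387.7 in WT. The part of meristem and root tissue in the SMXL values was not tested.

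In the libraries labelled ckx3 ckx5, the members of the strigolactone branch went separate ways. SMXL8 rose, SMXL6 fell slightly and SMXL7 was at the WT level, and outside that branch SMAX1 fell. These 3 of 8 called members, 1 higher and 2 lower, compare with 29.6% of all loci changed, 13.6% higher and 16% lower. SMXL8 had 78.5, 81.0, 70.0 and 72.1 CPM here, above all 4 WT libraries, with a change of 0.83 ± 0.10 (edgeR adjusted p = 1.16e-05), or 1.78-fold. A called rise of this size or more was seen at 2.07% of loci. Called falls as large as that of SMAX1 were seen at 10.7% of loci, and as large as that of SMXL6 at 12.4%.

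SMXL6 had 42.6, 40.6, 39.7 and 31.5 CPM in the same libraries, all below the lowest WT value of 45.1 CPM, and changed by -0.33 ± 0.08 (edgeR adjusted p = 0.00719); 26.8% of all loci did not overlap between these groups. Replicate 4 was the lowest, and without it the change was -0.24. SMXL7 had 130.4, 139.5, 122.3 and 120.8 CPM, inside the WT range, with a log2 fold change of -0.02 and a 95% interval of -0.21 to 0.17. SMAX1 had 37.0, 36.4, 38.6 and 34.0 CPM against 44.8, 46.2, 53.8 and 49.5 CPM in WT, with no overlap, and changed by -0.41 ± 0.06 (edgeR adjusted p = 0.000127). The other members stood between 0.01 and 0.16 on the log2 scale and did not pass the test, SMXL2 among them at 18.9 ± 2.73 CPM against 18.8 ± 2.12 in WT. Of the leaf markers 6 of 20 were lower in this comparison, beside 16% of all loci. With the leaf term SMXL8 stood at 0.77, SMAX1 at -0.43 and SMXL6 at -0.36.

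In scl28 the changes were small. SMXL8 had 57.6, 49.7, 59.2 and 51.3 CPM, above all WT libraries, and changed by 0.36 ± 0.10 (edgeR adjusted p = 0.0175). SMXL6 had 62.9, 58.5, 55.8 and 60.2 CPM, also above all WT libraries, and changed by 0.29 ± 0.08 (0.0219). SMXL5, a phloem member, had 61.7, 51.3, 58.9 and 64.7 CPM, of which 1 library lay within the WT range of 46.1 to 54.5, and changed by 0.25 ± 0.07 (0.021), while SMAX1 at 42.3 ± 1.997 CPM changed by -0.20 ± 0.06 (0.0328). SMXL7 stayed without a call at -0.03 (95% interval -0.22 to 0.16), as did SMXL2, SMXL3 and SMXL4 at 0.15, -0.03 and 0.12. The libraries of 18.8% of all loci did not overlap between these groups. This gives 3 members higher and 1 lower of 8, beside 19.8% of all loci changed, 9.3% higher and 10.5% lower. Called rises as large were seen at 4.9% of loci for SMXL8, 6.45% for SMXL6 and 7.54% for SMXL5. Called falls as large as that of SMAX1 were seen at 10.3%. None of the 4 calls was made when only the libraries of WT and scl28 entered the model (edgeR adjusted p = 0.0917 for SMXL8, 0.0581 for SMXL6, 0.106 for SMXL5 and 0.12 for SMAX1; the same fit gave 2171 loci in place of 4155), and single libraries decided some of them: without scl28 replicate 1 the number of called members was 1, and without WT replicate 4 or scl28 replicate 3 it was 2. SMXL8 lost its call without scl28 replicate 1 or 3, SMXL6 without WT replicate 2 or scl28 replicate 1, SMXL5 without WT replicate 4 or scl28 replicate 1 or 4, and SMAX1 without WT replicate 3 or 4 or scl28 replicate 2 or 3, with edgeR adjusted p up to 0.122.

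The 3 comparisons with WT share the WT libraries, so the mutants were also compared with each other. The log2 difference of d14-7 from the libraries labelled ckx3 ckx5 was -2.11 ± 0.10 for SMXL8, the largest of any member in the 6 comparisons, which leaves 23.1% of the level there. It was -1.41 ± 0.09 for SMXL7, -0.82 ± 0.09 for SMXL6 and -0.50 ± 0.11 for SMXL2, and SMAX1 was higher in d14-7 by 0.34 ± 0.06 (edgeR adjusted p from 5.7e-10 to 0.00273 over the 5 genes). That is 5 of 8 members, with 36.8% of all loci changed, 17.8% higher and 19% lower. From scl28, d14-7 differed by -1.64 ± 0.10 for SMXL8, -1.44 ± 0.09 for SMXL6, -1.40 ± 0.09 for SMXL7 and -0.63 ± 0.11 for SMXL2, and by 0.27 ± 0.09 for SMXL3, again 5 of 8 beside 42.5% of all loci, 20% higher and 22.5% lower. The SMXL3 call (edgeR adjusted p = 0.0276) was absent under 5 of 18 alternatives: without d14-7 replicate 3 (0.0913), without scl28 replicate 1 (0.0643) or 2 (0.0705), with no filter on low counts (0.0938) and with the leaf term (0.399). Leaf markers also stood apart here, 14 of 20 being higher in d14-7 than in the ckx3 ckx5 libraries (median log2 difference 0.39) and 19 of 20 higher than in scl28 (0.62). With the leaf term, SMXL6, SMXL7 and SMXL8 in d14-7 stood at -0.72, -1.14 and -1.87 against ckx3 ckx5 and at -1.33, -1.08 and -1.35 against scl28, all called by edgeR. In scl28 set against the libraries labelled ckx3 ckx5, SMXL6 was higher in scl28 by 0.62 ± 0.08 and SMXL8 differed by -0.47 ± 0.10 (edgeR adjusted p = 3.41e-05 and 0.00203), and SMAX1 was higher by 0.21 ± 0.06 (0.0207), which is 3 of 8 beside 24.7% of all loci, 13.1% higher and 11.5% lower. SMXL6 and SMXL8 thus differed in opposite directions between these mutants, while SMXL7 stood at -0.01 without a call. A test over the 4 genotypes together called 7 of 8 members, all but SMXL4 (edgeR adjusted p = 0.136), beside 62.8% of all loci.

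Summed over the family, transcripts of the 8 genes made up 356.1 ± 30.2 CPM in WT, 372.4 ± 20.0 in the libraries labelled ckx3 ckx5, 382.2 ± 16.6 in scl28 and 224.4 ± 4.75 in d14-7; these sums are not corrected for length. SMXL6, SMXL7 and SMXL8 together held 61.8% ± 3.41 of the family in WT, 65.0% ± 1.69 where the label is ckx3 ckx5, 63.0% ± 0.508 in scl28, and 39.0% ± 0.416 in d14-7. SMXL3, SMXL4 and SMXL5 summed to 68.1 ± 4.58 CPM in WT, 74.8 ± 2.67 where the label is ckx3 ckx5, 77.2 ± 2.52 in d14-7 and 78.3 ± 6.23 in scl28. Within the strigolactone branch, the ratio of SMXL8 to SMXL7 was 0.319 to 0.344 in the WT libraries, 0.335 to 0.387 in d14-7, 0.384 to 0.455 in scl28 and 0.573 to 0.602 in the libraries labelled ckx3 ckx5. WT and d14-7 overlapped in this ratio although both genes differed more than 2-fold between them, and the ckx3 ckx5 libraries stood apart from all others.

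**Figure D3:**
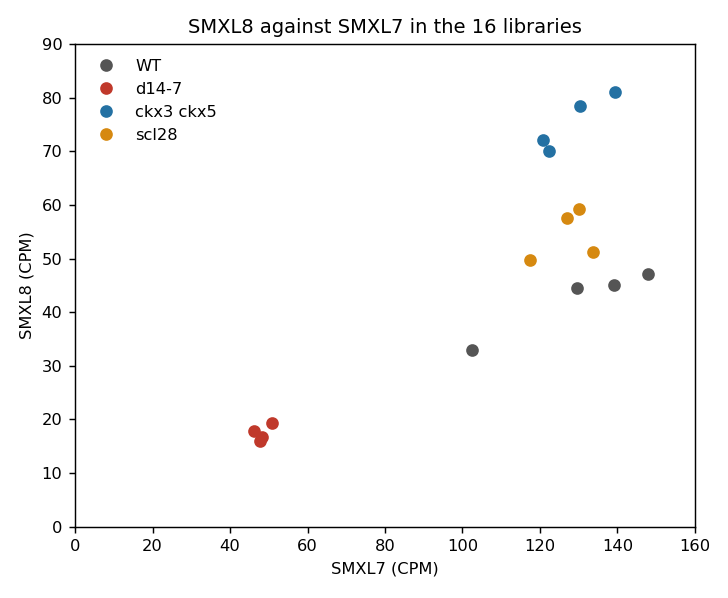
SMXL8 against SMXL7 (both in CPM) in the 16 libraries, coloured by genotype. The d14-7 libraries lie at the lower left, at or below 51.0 CPM of SMXL7, and the ckx3 ckx5 libraries lie above the WT libraries at a similar SMXL7 level.

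Across the 16 libraries, log2 CPM of SMXL7 correlated with that of SMXL8 at r = 0.921 and with that of SMXL6 at r = 0.892, and SMXL6 with SMXL8 at r = 0.736. After the mean of each genotype had been taken off, these were 0.847, 0.485 and 0.351. The libraries share genotype and tissue content, so these values are descriptions. SMXL2 followed SMXL6 at r = 0.826 and SMXL7 at r = 0.801 over all libraries, but at 0.177 and -0.066 within genotypes. Among 15809 loci with a mean of at least 5 CPM, those most like SMXL7 over the 16 libraries were AT5G59990, a CCT motif family gene (r = 0.985), and LARP6a, an RNA-binding protein (0.984). SMXL8 was followed most closely by AT1G04990, a C-x8-C-x5-C-x3-H zinc finger gene (0.991), and ADF2, an actin depolymerizing factor (0.984), and SMXL6 by AT4G21930, a DUF584 gene (0.978), and AT5G06370, an NC domain gene (0.976). For SMAX1 these were RKP (0.95) and AT5G46490 (0.942), for SMXL2 AT5G06450 (0.908) and AT1G11880 (0.904), for SMXL3 PFT1 (0.839) and PUB4 (0.826), for SMXL4 AT4G03010 (0.884) and AT1G16220 (0.841), and for SMXL5 FIP2 (0.896) and EOL1 (0.851).

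SMXL6 is the member for which the table holds counts on more than 1 transcript model. AT1G07200.2 has 3 exons and 3898 bases and spans the gene, and AT1G07200.1 has 2 exons and 2214 bases and starts inside it, at 2211021 on the minus strand, so that its coding sequence lacks the 5′ part. The exons of both models merge to 4065 bases, so that most bases of the shorter model also lie in the full-length model. The 5′ part of the full-length model is its own. The split of counts between the models is an estimate of the authors' counting. The full-length model stood at 29.9 ± 3.58 CPM in WT and 15.4 ± 0.244 CPM in d14-7 (log2 fold change -0.96 ± 0.13, edgeR adjusted p = 0.000226), and the shorter at 18.6 ± 1.5 and 6.47 ± 0.733 CPM (-1.52 ± 0.09, adjusted p = 3.69e-07). The shorter model held 37.1, 42.4, 37.2 and 37.2% of SMXL6 counts in the WT libraries and 27.8, 29.7, 33.0 and 27.7% in d14-7, without overlap. In the libraries labelled ckx3 ckx5 the share was 43.3, 40.4, 37.9 and 51.7%, and in scl28 43.4, 40.0, 45.4 and 38.7%. A two-sided exact permutation test gave p = 0.0286 for d14-7 against each of the other genotypes, which is the smallest value that the 70 splits of 4 against 4 libraries allow, and 0.0571 after Benjamini-Hochberg adjustment over the 6 comparisons. With 3 of the 6 comparisons holding d14-7, full separation of d14-7 in all 3 could give no lower adjusted value unless another comparison also separated, so the adjusted value says nothing on the size of the difference. In the libraries labelled ckx3 ckx5 the full-length model fell by 0.44 ± 0.13 (edgeR adjusted p = 0.0249) and the shorter stood at -0.17 ± 0.09 (0.214); in scl28 the shorter rose by 0.42 ± 0.09 (0.0073) and the full-length stood at 0.21 ± 0.13 (0.333). The second model of SMXL8, AT2G40130.2, is listed at 0 in all 16 libraries.

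**Figure D4:**
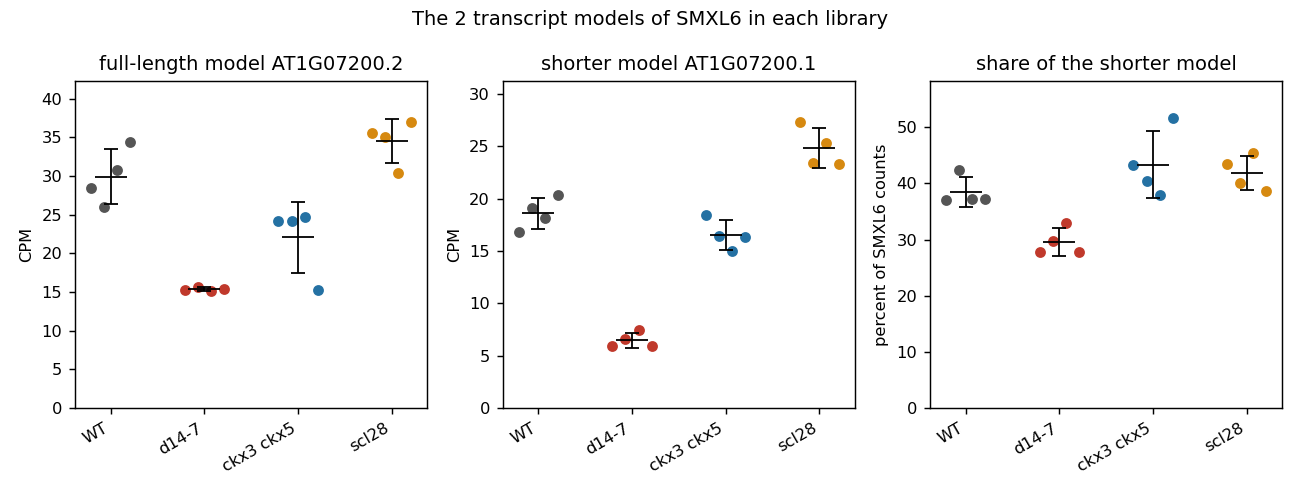
CPM of the full-length and the shorter transcript model of SMXL6, and the percentage of SMXL6 counts assigned to the shorter model, in each library (points; bar and whiskers are mean and SD, n = 4). The d14-7 share of 27.7 to 33.0% lies below the other genotypes, whose lowest library is at 37.1%.

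Genes that act with the family were read from lists of the pathway. Of the 4 genes of the receptor list, which also holds MAX2 and the related gene AT3G24420, 3 were lower in d14-7, beside 20.6% of all loci. These were D14 itself at a log2 fold change of -0.43 ± 0.07, KAI2, the receptor of the SMAX1 branch, at -0.53 ± 0.09, and MAX2, the F-box gene of both branches, at -0.46 ± 0.08. In the libraries labelled ckx3 ckx5, D14 was lower at -0.55 ± 0.07 and KAI2 higher by 0.33 ± 0.09, and in scl28 the related alpha/beta-hydrolase gene AT3G24420 was higher by 1.07 ± 0.26 (2.09 ± 0.316 CPM in WT, 4.39 ± 0.91 in scl28). The median log2 fold change of the 4 was -0.48, 0.02 and -0.06 in the 3 mutants, beside medians of -0.01, 0.01 and 0.01 over all loci.

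Of 6 strigolactone synthesis genes, 4 were higher and 1 lower in d14-7, 2 higher and 2 lower in the libraries labelled ckx3 ckx5, and 2 higher in scl28. Over all loci, 18.1% were higher and 20.6% lower in d14-7. The shares were 13.6% higher and 16% lower where the label is ckx3 ckx5, and 9.3% higher in scl28. MAX3 and MAX4, which encode carotenoid cleavage dioxygenases, were higher in all 3: MAX4 had 2.50 to 3.99 CPM in WT, 31.6 to 45.5 in d14-7, 10.5 to 12.7 in the libraries labelled ckx3 ckx5 and 7.30 to 9.31 in scl28, and MAX3 changed by 3.83 ± 0.29, 1.25 ± 0.30 and 1.03 ± 0.30. MAX1, a cytochrome P450 that acts after them, was lower than in WT both in d14-7 (-0.59 ± 0.12) and where the label is ckx3 ckx5 (-1.22 ± 0.13). D27 and LBO, the first enzyme and a late oxidase, rose in d14-7 by 1.27 ± 0.34 and 1.16 ± 0.15.

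Of the 5 TOPLESS corepressor genes, whose products bind the EAR motif, 2 were higher in d14-7 (18.1% of all loci were), 3 were lower in the libraries labelled ckx3 ckx5 (16% of all loci) and 0 changed in scl28. TPR3 and TPR2 were higher in d14-7 by 0.50 ± 0.08 and 0.24 ± 0.07, and TPL, TPR4 and TPR2 were lower in the libraries labelled ckx3 ckx5 at -0.29 ± 0.07, -0.21 ± 0.05 and -0.19 ± 0.07. In scl28 the 5 genes stood between -0.05 and 0.08. TPL stood at -0.06 in d14-7 (edgeR adjusted p = 0.499).

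Of the 8 genes listed as targets of SMXL6, SMXL7 and SMXL8 or as parts of the BRC1 pathway, 5 were lower in d14-7, beside 20.6% of all loci. The transcripts of the 3 repressors were lower there too. BRC1 had 6.80, 6.91, 6.27 and 7.99 CPM in WT and 0.337, 0.373, 0.494 and 0.288 CPM in d14-7 (-4.22 ± 0.27, edgeR adjusted p = 8.18e-08). HB40, a homeodomain gene downstream of BRC1, changed by -4.45 ± 0.27 and was the largest fall of the list. The libraries labelled ckx3 ckx5 had 12.3, 12.3, 12.5 and 6.93 CPM of BRC1, of which replicate 4 lay within WT (0.65 ± 0.19, edgeR adjusted p = 0.0177), and scl28 had 9.90, 5.44, 9.26 and 9.36 CPM (0.28 ± 0.19, 0.333). PAP1, an anthocyanin regulator, was higher in scl28 by 0.76 ± 0.24 and HB40 by 0.74 ± 0.18. The median of the list was -3.10 in d14-7, 0.24 in the libraries labelled ckx3 ckx5 and 0.29 in scl28. The medians over all loci were -0.01, 0.01 and 0.01 in the same order.

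Of 5 genes listed as karrikin response markers downstream of SMAX1 and SMXL2, 4 could be tested. IAA1, an auxin-responsive gene, was higher in d14-7 by 0.62 ± 0.17 and in the libraries labelled ckx3 ckx5 by 1.38 ± 0.17. KUF1 was lower in the libraries labelled ckx3 ckx5 at -0.54 ± 0.18. In scl28 the call of the list was AT3G24420, counted above in the receptor list, higher by 1.07 ± 0.26 (edgeR adjusted p = 0.00909). A link of these markers to the SMAX1 transcript, which was not called in d14-7, was not tested. Of 13 phloem genes listed beside SMXL3, SMXL4 and SMXL5, 1 changed in d14-7 (OBE3, -0.22 ± 0.07) and 1 in the libraries labelled ckx3 ckx5 (CVP2, -0.19 ± 0.07). Of all loci, 38.7% and 29.6% changed in these comparisons. In scl28, 2 of the 13 were called, OPS higher by 0.30 ± 0.07 and CVP2 by 0.26 ± 0.06, beside 19.8% of all loci changed. Of 4 cambium genes, HB8 was higher in d14-7 by 0.52 ± 0.05 and lower in scl28 at -0.41 ± 0.05, and WOX14 was lower in scl28 at -0.90 ± 0.25. Over all loci, 18.1% were higher in d14-7, and 13.6% higher and 16% lower where the label is ckx3 ckx5. In scl28 9.3% were higher and 10.5% lower.

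**Figure D5:**
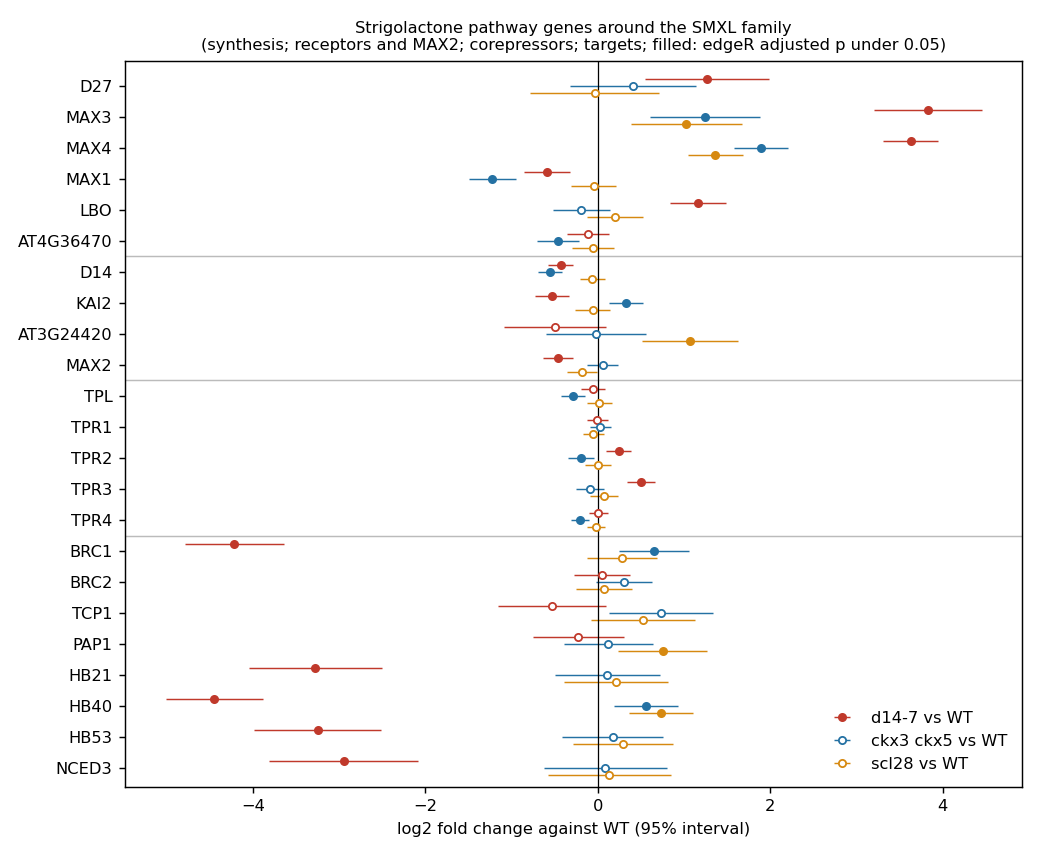
Log2 fold change against WT, with 95% intervals, of genes of strigolactone synthesis, the receptors with MAX2, the TOPLESS corepressors and the targets; filled points passed an edgeR adjusted p of 0.05. MAX3 and MAX4 lie to the right of 0 in all 3 mutants, and BRC1, HB21, HB40, HB53 and NCED3 lie between -4.45 and -2.95 in d14-7.

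The clock genes LHY and CCA1 also differed between the groups, and they are given because of the hour of harvest and the evening elements upstream of SMXL8; they were chosen after their values had been seen. LHY had 256.3 to 260.2 CPM in WT, 182.7 to 189.5 in d14-7, 19.1 to 24.3 in the libraries labelled ckx3 ckx5 and 517.5 to 547.9 in scl28. CCA1 had 132.8 to 143.7, 104.7 to 113.9, 23.7 to 29.9 and 330.4 to 363.7 CPM in the same order. Mean SMXL8 was 42.4, 17.5, 75.4 and 54.5 CPM in that order. The part of the clock in the SMXL values was not tested. Of 7 xylem markers, 2 were higher in d14-7, 2 higher in the libraries labelled ckx3 ckx5 and 1 lower in scl28, and of 5 flower markers 1, 3 and 1 were higher in the same order. Over all loci, 18.1%, 13.6% and 9.3% were higher in the 3 mutants and 10.5% were lower in scl28.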

How the data were processed

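RNA was measured in 16 libraries, 4 per genotype. The authors deposited estimated counts for 41671 transcript models, all of them integers and used unrounded, and a second table whose deposited signal is the count divided by a nearly constant factor per library: 99.4% of ratios at counts of 50 or more deviated by less than 1% from the column median. That table served for this check only. TAIR10 and DESeq2 are named, per the submitters' processing notes; the aligner, the counting tool and the strand setting are not stated there or in the labels. No pair of libraries agreed within sampling noise (chi-square per locus 4.61 to 90.17 within genotypes).

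Counts were summed to 33602 loci, 5885 of them with several models, and 32835 were found in the RefSeq annotation of TAIR10.1, which gave names, coordinates and lengths (all annotated exons of a gene merged). Loci without a name there are given by identifier. edgeR 4.0.16 in R 4.3.3 was run with TMM, filterByExpr, glmQLFit (robust) and glmQLFTest in 1 model of 4 genotype means; p-values were adjusted by Benjamini-Hochberg over all 20947 loci tested, and a change means an adjusted p under 0.05. The common dispersion was 0.016. Errors of log2 fold changes are standard errors and those of levels are SD. Log2 CPM used a prior count of 2. The test was tested on simulated data. Alternatives were RLE and upper-quartile scaling, no filter or 1 CPM in 4 libraries, DESeq2 1.42.0, limma-voom 3.58.1, only the 2 groups compared, a replicate block, a leaf term, transcript models, and each library left out.

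Replicate numbers, taken from the sample titles, gave no clear pairing: only 4 of 24 pairs of libraries with the same title number correlated over 0.1 in their deviations from the group means. The library names carry other numbers for some samples, among them all of scl28. Pairing by library name was not tested, and the replicate block used the title numbers.

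Members and lists were chosen with earlier results of these data known. Named were the 8 members, D14, KAI2, AT3G24420, MAX2, BRC1 and TPL, the largest called rise and fall of each pathway list against WT, and the 2 loci most correlated with each member; D27, LBO, TPR2, TPR4, STM, RAX1, the clock genes and a few others were added after their values were seen.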

Additional observations from a re-analysis of the deposited data

How the results depend on the processing

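Of 864 values of the 8 members under the alternatives, 832 kept their side of the threshold, 25 lost a call, 7 gained one and 0 changed sign as called values. Values without a call could change sign near 0, such as SMXL7 in ckx3 ckx5 against WT, at -0.02 and up to 0.05 with 1 library left out. SMXL6, SMXL7 and SMXL8 in the 3 comparisons of d14-7 kept their calls in 162 of 162, and the called members of ckx3 ckx5 against WT in 54 of 54. The 4 calls of scl28 against WT were lost in 17 of 72. With only the 2 groups compared, the number of changed loci was 5034 in place of 8101 for d14-7 against WT and 2171 in place of 4155 for scl28 against WT, where 0 of 8 members passed (edgeR); it was 4760 in place of 6205 for ckx3 ckx5 against WT but higher without WT, at 9372 for d14-7 against ckx3 ckx5, 9180 for d14-7 against scl28 and 6094 for scl28 against ckx3 ckx5 (7709, 8899 and 5169 with all groups), and the cause was not tested. With the leaf term, changed loci numbered 2133 for d14-7 against WT, 6904 for scl28 against WT, 4591 for d14-7 against ckx3 ckx5 and 3729 for d14-7 against scl28, and the cause was not tested. Leaving out 1 library gave 5026 to 10355 changed loci for d14-7 against WT (5026 without WT replicate 4 and 5231 without WT replicate 3) and 1 to 4 called members for scl28 against WT. SMAX1 between scl28 and ckx3 ckx5 lost its call without ckx3 ckx5 replicate 4 and without scl28 replicate 1 or 4 (adjusted p up to 0.0733). Calls were gained by SMXL3 (0.0493, without WT replicate 1), SMXL5 (0.036, without WT replicate 2) and SMXL4 (0.0418, without WT replicate 3) in d14-7 against WT, by SMXL5 in ckx3 ckx5 against WT (0.0473, without WT replicate 2) and by SMXL4 in d14-7 against ckx3 ckx5 (0.0438, without ckx3 ckx5 replicate 3). A member of low level such as SMXL3, with 191 to 297 counts per library, limits what small changes can be called.

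With the replicate block, 7837 loci changed for d14-7 against WT, 5881 for ckx3 ckx5 against WT and 3889 for scl28 against WT, and 7421, 8692 and 4884 for d14-7 against ckx3 ckx5, d14-7 against scl28 and scl28 against ckx3 ckx5. The calls of the members were 4, 3, 4, 5, 5 and 3 in the same order, and all 48 values kept their call. The correlation of libraries with the same title number ran from -0.276 to 0.342. Blocks by the numbers in the library names, which differ for some samples, were not tested.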
